A study of Mus musculus with 6 samples.

Results

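Cluster 5 comprised 3368 accessible regions on the 19 mouse autosomes, out of 69689 regions in the whole series and 68288 on autosomes. Its members were chosen by the cluster name that the authors assigned to each region, 1 of 9 names, and by location on an autosome. The other autosomal regions numbered 64920, and 160 further cluster 5 regions lay outside the autosomes. How the clusters were formed, and which pattern of accessibility their names stand for, are not stated in any source used here, so no direction of change between treatments can be attached to the members. The regions came from ACC-seq, an assay in which the transposase Tn5 cuts open chromatin and attaches sequencing adapters, in R1 mouse embryonic stem cells of wild-type genotype. The 6 libraries formed 3 groups of 2. Fix_1,6-Hex cells were exposed to 1,6-hexanediol at 10% (w/v) for 30 s, and again during a fixation of 10 min in 1% formaldehyde; this aliphatic alcohol disperses many condensates held by weak contacts. Fix cells had the same fixation without the alcohol, and their nuclei, like those of Fix_1,6-Hex cells, were tagmented at 55 °C for 30 min. Fresh cells were not fixed and were tagmented at 37 °C for 30 min, so temperature and fixation cannot be told apart. All cells had been grown on mouse embryonic fibroblast feeders with serum, LIF and 2i in the medium, and replating removed the feeders. The deposited table gives each region's position on mm10 and its cluster name, with no value per library, so sequencing depth is unknown and the results below concern where the members lie. The labelled cell type cannot be checked in single libraries. Over all clusters, regions lay at gene ends of 21 of 29 naive pluripotency genes and 12914 of all 20665 protein-coding genes on autosomes. For other cell types the counts were 18 of 29 fibroblast, 13 of 18 neuronal, 10 of 14 trophoblast and 10 of 18 primitive endoderm genes. They were 8 of 20 for muscle, 7 of 18 for liver and 7 of 19 for haematopoietic genes. These counts do not set the naive list apart from the neuronal and trophoblast lists.

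Accessible chromatin marks places where nucleosomes have been displaced or loosened, mainly at promoters, where transcription starts, and at enhancers, which lie at a distance and act on promoters through bound transcription factors. Promoters of widely expressed genes are often rich in CpG and in GC and CCAAT boxes, while enhancers of embryonic stem cells are commonly bound by OCT4, SOX2, NANOG, ESRRB and KLF proteins. Some of these factors and the Mediator complex are reported to gather in condensates, which is why 1,6-hexanediol has been used to perturb them.

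Promoters whose start site lay inside a cluster 5 region are shown first, since they are the members for which sequence was at hand. The windows run from 250 bases before to 50 bases after the RefSeq start site on GRCm38.p6, the same assembly as mm10, and are written 5′ to 3′ on the strand of the gene. Each window below lay wholly inside a cluster 5 region. These 8 genes were picked after their values were seen, to show the range from CpG-rich to CpG-poor promoters. Capitals mark exact matches, on either strand, to the CCAAT box (CCAAT, bound by NF-Y), the GC box (GGGCGG, bound by SP and KLF factors), the octamer (ATTTGCAT, bound by OCT factors), a KLF site (GGGTGTGG), an ETS site (CCGGAAG), the TATA box (TATAAA) or a YY1 site (AAGATGGC), as named for each gene. In Spry2 they mark CpG dinucleotides instead. A match describes the letters, at any distance from the start site, and is not evidence that a factor was bound. The name TATA box likewise stands for the letters only, and the match in B2m reads on the strand opposite to the gene.
Zfp42, chr8:43306960-43307259, minus strand, capitals for an octamer, 2 GC boxes (1 overlapping a KLF site) and a CCAAT box: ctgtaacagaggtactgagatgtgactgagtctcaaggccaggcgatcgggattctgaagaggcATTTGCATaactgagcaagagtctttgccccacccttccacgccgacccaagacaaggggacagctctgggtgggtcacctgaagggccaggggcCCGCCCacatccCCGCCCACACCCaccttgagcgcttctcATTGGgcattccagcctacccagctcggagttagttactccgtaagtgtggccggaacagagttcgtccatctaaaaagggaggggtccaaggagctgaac
Mcl1, chr3:95658471-95658770, plus strand, capitals for an ETS site and a GC box: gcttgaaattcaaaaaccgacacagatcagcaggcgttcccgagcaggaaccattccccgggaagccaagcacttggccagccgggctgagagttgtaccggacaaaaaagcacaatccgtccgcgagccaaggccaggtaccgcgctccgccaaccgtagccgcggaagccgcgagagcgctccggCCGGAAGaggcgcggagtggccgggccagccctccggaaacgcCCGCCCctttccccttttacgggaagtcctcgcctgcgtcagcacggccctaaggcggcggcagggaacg
B2m, chr2:122147437-122147736, plus strand, capitals for a TATA box and a CCAAT box: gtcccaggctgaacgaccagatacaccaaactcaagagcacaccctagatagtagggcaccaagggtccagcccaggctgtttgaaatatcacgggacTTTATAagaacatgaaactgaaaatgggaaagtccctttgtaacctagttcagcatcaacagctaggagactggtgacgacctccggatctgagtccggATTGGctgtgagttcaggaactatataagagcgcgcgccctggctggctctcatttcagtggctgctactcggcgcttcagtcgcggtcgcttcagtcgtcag
Rps15a, chr7:118116098-118116397, minus strand, capitals for a GC box, a CCAAT box and a YY1 site: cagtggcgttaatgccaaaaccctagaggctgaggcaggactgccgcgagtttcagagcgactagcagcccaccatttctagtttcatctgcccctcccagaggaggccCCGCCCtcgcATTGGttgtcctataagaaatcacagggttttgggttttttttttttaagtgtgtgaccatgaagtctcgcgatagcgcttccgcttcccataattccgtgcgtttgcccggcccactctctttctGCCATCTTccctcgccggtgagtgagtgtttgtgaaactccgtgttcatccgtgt
Hadhb, chr5:30155003-30155302, plus strand, capitals for 4 GC boxes: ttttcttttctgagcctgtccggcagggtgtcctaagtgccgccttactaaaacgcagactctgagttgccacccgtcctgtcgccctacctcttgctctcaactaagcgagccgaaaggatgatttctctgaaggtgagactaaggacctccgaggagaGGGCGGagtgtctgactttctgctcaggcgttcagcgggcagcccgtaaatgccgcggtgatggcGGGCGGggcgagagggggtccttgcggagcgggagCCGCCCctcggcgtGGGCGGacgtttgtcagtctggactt
Zfp951, chr5:104859978-104860277, minus strand, capitals for a CCAAT box and an ETS site: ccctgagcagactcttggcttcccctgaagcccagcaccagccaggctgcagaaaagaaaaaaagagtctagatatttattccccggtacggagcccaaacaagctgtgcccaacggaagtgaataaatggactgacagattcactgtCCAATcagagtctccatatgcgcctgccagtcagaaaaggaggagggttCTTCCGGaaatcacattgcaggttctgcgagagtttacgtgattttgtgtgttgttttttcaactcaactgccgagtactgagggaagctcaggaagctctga
H3c2, chr13:23752095-23752394, plus strand, capitals for 2 CCAAT boxes and a TATA box: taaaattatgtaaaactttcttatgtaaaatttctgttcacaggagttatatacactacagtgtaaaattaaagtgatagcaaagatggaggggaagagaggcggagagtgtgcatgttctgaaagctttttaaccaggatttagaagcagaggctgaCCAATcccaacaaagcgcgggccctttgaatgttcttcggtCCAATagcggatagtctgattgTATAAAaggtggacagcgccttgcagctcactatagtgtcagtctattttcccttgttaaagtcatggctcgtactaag
Spry2, chr14:105896770-105897069, minus strand, capitals for 28 CpG dinucleotides: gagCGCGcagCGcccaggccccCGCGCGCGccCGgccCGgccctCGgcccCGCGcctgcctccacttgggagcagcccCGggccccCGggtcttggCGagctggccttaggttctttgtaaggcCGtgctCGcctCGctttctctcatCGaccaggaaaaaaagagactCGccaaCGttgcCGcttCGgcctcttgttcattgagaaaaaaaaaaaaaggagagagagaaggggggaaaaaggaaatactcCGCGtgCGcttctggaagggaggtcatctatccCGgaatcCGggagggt

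These 8 promoters belong to genes of unlike function. Zfp42 (also called Rex1) encodes a zinc finger protein used as a marker of naive pluripotency, Mcl1 an inhibitor of cell death of the BCL2 family, and B2m the light chain of MHC class I molecules. Rps15a encodes a protein of the small ribosomal subunit, Hadhb the beta subunit of the mitochondrial enzyme of fatty acid oxidation, Zfp951 a zinc finger protein, H3c2 a histone H3, and Spry2 an inhibitor of receptor tyrosine kinase signalling. Per window of 300 bases, the CpG count was 33 in Mcl1, 28 in Spry2, 24 in Hadhb, 17 in Rps15a, 14 in B2m, 11 in Zfp42, 8 in Zfp951 and 7 in H3c2. GC content spanned 40.7% in H3c2 to 65.7% in Mcl1. The Hadhb window shares its region of 1209 bp with the start of Hadha, the alpha subunit gene, on the opposite strand. The H3c2 window lay in a region of 3095 bp that also covers H2ac4, a histone H2A gene.

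Across all cluster 5 regions, 520 RefSeq start sites of 461 protein-coding genes were found, and 463 of their windows lay wholly inside the region. Chromosome 18 is left out of all counts that rest on promoter sequence. The median GC content was 58% (quartiles 53% and 63%) in cluster 5 promoters, against 62.7% (56.7% and 68.7%) in the 11668 promoters in regions of other clusters and 57% in all 20085 promoters. The median CpG count was 18 (quartiles 12 and 24) in cluster 5 promoters, against 22 (15 and 30) in those of other clusters, 14 in all promoters and 3 in the 7897 promoters outside regions. Promoters with under 8 CpG made up 12.3% of cluster 5 promoters and 7.26% of those in other regions. Between clusters, the median CpG count of cluster 5 lay above those of clusters 6 (16), 7 (11) and 9 (17) and below those of clusters 1, 2, 3, 4 and 8 (22 to 24). The quartile ranges of all these clusters overlapped that of cluster 5. Genes with several listed starts count several times, so these values are descriptions without a test.

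A CCAAT box was found in 242 of the 520 cluster 5 promoters (46.5%), against 37.9% of promoters in other regions and 38.1% of all promoters. Among the other clusters this share ran from 27.5% in cluster 1 to 56.0% in cluster 2. A GC box was found in 62.5% of cluster 5 promoters, against 69.4% of those in other regions and 47.0% of all promoters. The GC box was thus less frequent and the CCAAT box more frequent among cluster 5 promoters than in the pooled other regions. An ETS site stood in 20.0%, against 18.1% in other regions and 11.9% of all promoters, and a TATA box in 6.54%, against 5.85% and 12.7%. The YY1 site was found in 4.81%, against 4.24% and 3.06%, and the KLF site in 3.27%, against 3.87% and 3.65%. The string AGGGGGC, part of the CTCF motif, was found in 12.3% of cluster 5 promoters, against 18.2% in other regions and 13.1% of all promoters. The octamer was present in 16 cluster 5 promoters (3.08%), against 1.35% in other regions and 1.67% of all promoters. Cluster 7 had a higher octamer share, 3.99%. Besides Zfp42, the octamer promoters included those of the histone genes H2bc14 and H2ac4, the DNA repair gene Parp2 and the mitochondrial gene Chchd10. Others were those of Acp2, Acpp, D130040H23Rik, Gm14139, Gm20939 and Gm32856. Overlapping windows of Gm32856 were counted separately, so the 16 are not all different genes. The site TCAAGGTCA, bound by ESRRB, had no match among the 520 windows, against 0.24% of promoters in other regions. Letters outside these windows were not searched.

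**Figure D1:**
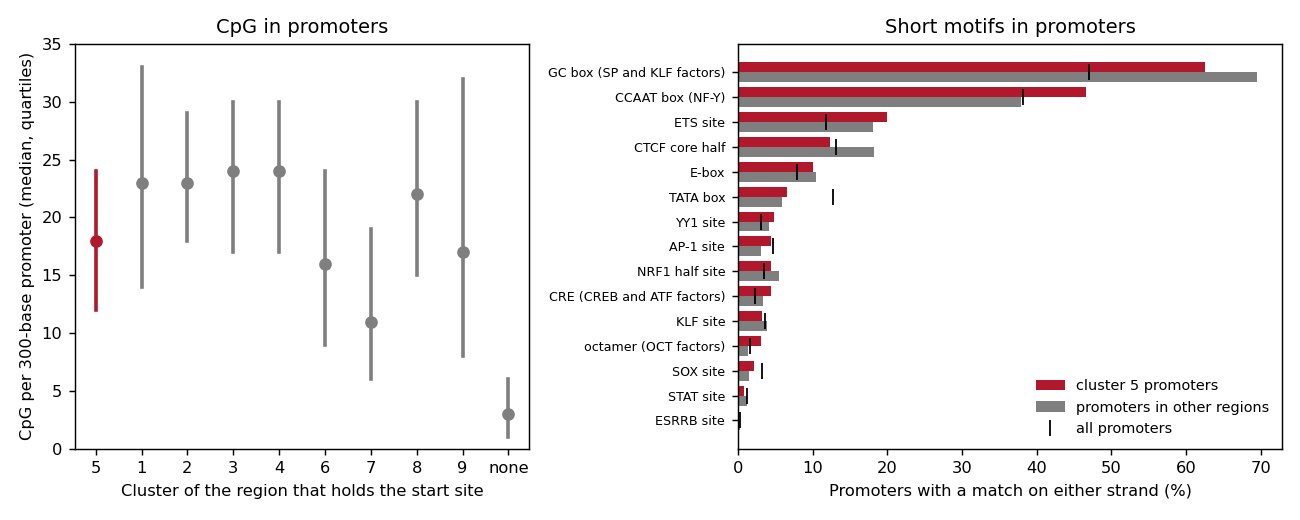
Left, CpG per promoter window of 300 bases by the cluster of the region that holds the start site (points, medians; lines, quartiles); none stands for promoters outside regions. Right, percent of promoters with a match to each short motif in cluster 5 promoters (red), in promoters of other regions (grey) and in all promoters (black ticks); cluster 5 had a median of 18 CpG and a CCAAT box in 46.5%.

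Cluster 5 regions lay less often at gene ends and more often between genes than the other autosomal regions. A region was placed by its midpoint: at a gene end when within 1 kb of either limit of a protein-coding gene, in a gene body when inside a gene and not at an end, and otherwise intergenic. Gene ends held 521 members, 15.5% ± 3.76 of cluster 5 against 18.9% ± 1.97 of other regions (SD over n = 19 autosomes). The odds ratio was 0.783 (95% interval 0.712 to 0.862, Fisher's exact test, two-sided, Benjamini-Hochberg adjusted p = 3.393e-07), and the share was lower in 16 of 19 autosomes. Intergenic members numbered 1551, 46.1% ± 4.77 of cluster 5 against 37.8% ± 3.82 of other regions, an odds ratio of 1.41 (1.31 to 1.51, adjusted p = 3.078e-21 by Fisher's exact test), higher in 18 of 19 autosomes. Gene bodies held 38.5% ± 4.52 of cluster 5 and 43.3% ± 2.68 of other regions (odds ratio 0.819, adjusted p = 4.577e-08 by Fisher's exact test), lower in 18 of 19 autosomes. Adjacent regions are not independent, so these p-values are too small. Width bears on these shares: among regions of 500 to 1500 bp the gene-end odds ratio was 0.388 and the intergenic one 1.93, while the gene-body one turned to 1.04 (adjusted p = 0.3785 by Fisher's exact test).

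The gene-end share set cluster 5 between other clusters. By cluster, shares were computed for clusters 1, 6 and 8 only. Clusters 7 and 9, with 12907 and 17973 regions, had lower quartiles of distance to a gene end of 6.43 and 5.32 kb. Both were above the 4.39 kb of cluster 5. Against cluster 8, whose regions lay at gene ends in 45.6% of cases, cluster 5 had a gene-end odds ratio of 0.219 (0.197 to 0.243, adjusted p = 9.393e-205 by Fisher's exact test) and was lower in 19 of 19 autosomes. Against cluster 1, with 20.6% at gene ends, the odds ratio was 0.706 (0.637 to 0.782, adjusted p = 1.57e-11 by Fisher's exact test), lower in 18 of 19. Against cluster 6, with 8.85% at gene ends, it was 1.89 (1.67 to 2.12, adjusted p = 6.413e-24 by Fisher's exact test), higher in 18 of 19. The intergenic share of 46.1% stood against 23.9% in cluster 8 (odds ratio 2.71), 36.0% in cluster 1 (1.52) and 44.1% in cluster 6 (1.08). The last of these differences, with an adjusted p of 0.04958 by Fisher's exact test, was just under the threshold of 0.05 and was lost with 1 region per 50 kb (1.00, adjusted p = 0.9743 by Fisher's exact test) and under other settings. In gene bodies, cluster 5 (38.5%) was above cluster 8 (30.5%, odds ratio 1.43) and below clusters 1 (43.4%, 0.817) and 6 (47.1%, 0.703).

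Members lay farther from gene ends than the pooled other regions did, at distances close to those of clusters 6, 7 and 9. The median distance from a region's midpoint to the nearest gene end was 18.3 kb in cluster 5 (quartiles 4.39 and 62.8 kb), against 11.1 kb in other autosomal regions (2.28 and 38.0 kb). By cluster, the median was 17.5 kb in cluster 6, 19.7 kb in cluster 7, 16.8 kb in cluster 9, 7.63 kb in cluster 1 and at most 1.67 kb in clusters 2, 3, 4 and 8. Over autosomes, the medians of cluster 5 ran from 9.77 to 30.7 kb (SD 5.28) and those of other regions from 6.26 to 17.6 kb (SD 2.91), and the cluster 5 median was the higher on all 19. Regions over 100 kb from any gene end numbered 581, 17.3% of cluster 5 against 10.1% of other regions (odds ratio 1.85, 1.68 to 2.03, adjusted p = 1.589e-33 by Fisher's exact test), higher on 19 of 19 autosomes. The same class held 14.5% of cluster 6, 6.06% of cluster 1 and 4.04% of cluster 8. Of the 6 distance classes, the lowest odds ratio was that just beyond gene ends: 11.3% of cluster 5 against 16.5% of other regions were over 1 and up to 5 kb from a gene end (odds ratio 0.645, adjusted p = 2.928e-16 by Fisher's exact test), lower on 19 of 19 autosomes. At over 50 to 100 kb the shares were 12.1% and 10.0% (odds ratio 1.24, adjusted p = 0.0002042 by Fisher's exact test), a difference that was lost when 1 region per 50 kb was kept (1.05, adjusted p = 0.5303 by Fisher's exact test). The classes from over 5 to 20 kb (25.2% and 26.7%) and over 20 to 50 kb (18.7% and 17.7%) did not pass the test. The member farthest from a gene lay 1972 kb from Celf4, at chr18:27726293-27726915, and the next 1957 kb from Cdh20, at chr1:102811254-102811931.

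**Figure D2:**
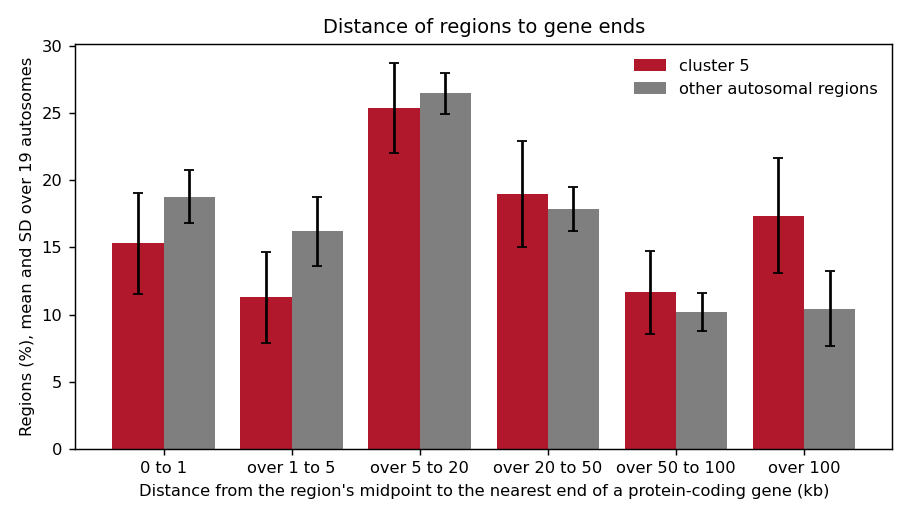
Percent of regions in each class of distance from the region's midpoint to the nearest end of a protein-coding gene, for cluster 5 (red) and other autosomal regions (grey). Bars are means and lines the SD over 19 autosomes; cluster 5 was lower up to 5 kb and higher beyond 100 kb.

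Cluster 5 regions were of middle width. Their median was 813.5 bp (quartiles 635 and 1091 bp), against 453 bp (301 and 926 bp) in other autosomal regions. Over autosomes the cluster 5 median ran from 760 to 865 bp and exceeded that of other regions on all 19. Widths of 500 to 1500 bp made up 81.2% of cluster 5 and 33.1% of other regions, and widths under 500 bp made up 6.53% and 54.9%. Cluster 8 was the most like in width (median 866 bp, 73.8% at 500 to 1500 bp), while clusters 7 and 9 were narrower (345 and 293 bp) and clusters 2, 3 and 4 wider (1244 to 1368 bp). Width may rest on the same signal as the clusters, so it is described without a test. Within cluster 5, members at gene ends were the widest, with a median of 872 bp, against 802 bp in gene bodies and 796 bp between genes. By quartile of cluster 5 width, narrow to wide, gene-end shares were 10.5%, 15.4%, 15.6% and 20.4% in cluster 5, against 8.14%, 25.3%, 41.4% and 44.5% in other regions of the same widths. The share at gene ends thus grew with width in both sets, and more steeply among the other regions. Over the same quartiles, intergenic shares were 47.5%, 48.0%, 48.5% and 40.3% in cluster 5, against 44.0%, 34.5%, 25.7% and 23.3% in other regions.

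**Figure D3:**
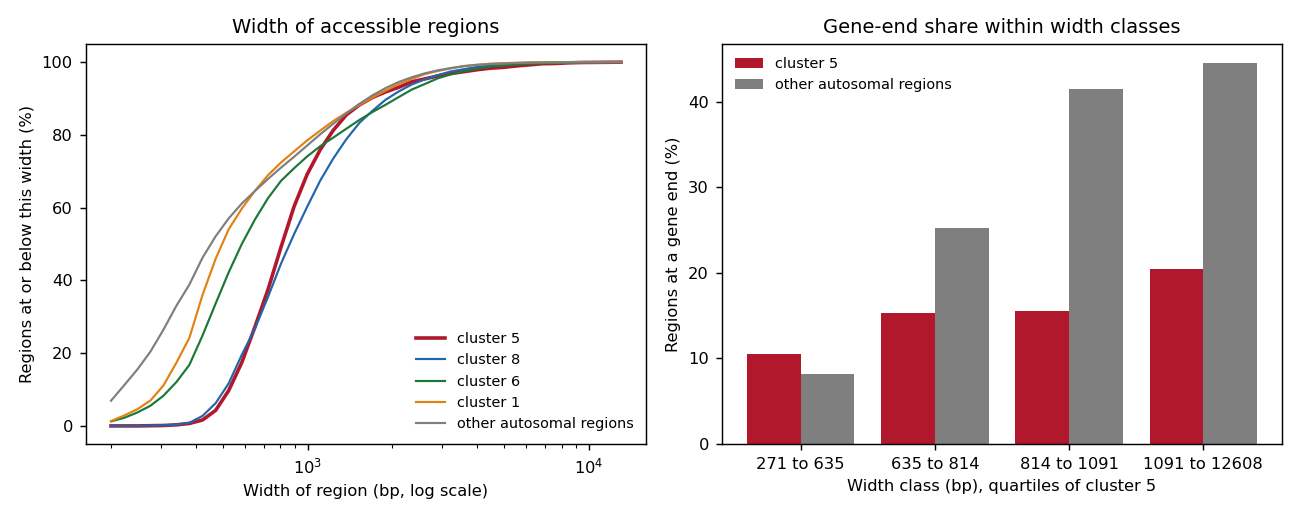
Left, cumulative percent of regions by width (bp, log scale) for cluster 5 and its comparators; the cluster 5 curve is steep between 500 and 1500 bp. Right, percent of regions at a gene end within width classes set by the quartiles of cluster 5, for cluster 5 (red) and other autosomal regions (grey).

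Regions of at least 2 kb made up 7.51% of cluster 5 (253 members) and 6.27% of other autosomal regions. The widest member, 12608 bp at chr12:86496603-86509210, lay in the body of Esrrb, which encodes an orphan nuclear receptor of the naive pluripotency network. The second, 10542 bp at chr3:95658172-95668713, covered the start of Mcl1 shown above and the other end of that gene. A region of 10339 bp lay in the body of Myo10, an unconventional myosin of filopodia. A region of 9120 bp at chr8:94178737-94187856 covered Mt1, a metallothionein gene. A region of 8538 bp lay 50.0 kb from Klf9, a Krüppel-like factor gene, and one of 8532 bp at chr14:105892900-105901431 covered the start of Spry2. The remaining 4 of the 10 widest lay near Snx5, a sorting nexin (8204 bp), in the body of Tmem51 (8171 bp), near Eif4a2, a helicase of translation initiation (8139 bp), and at Dppa5a, an RNA-binding protein of pluripotent cells (8114 bp, chr9:78367945-78376058). By midpoint, 2 of the 10 were at a gene end, 3 in a gene body and 5 between genes.

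Cluster 5 took different shares of the regions on different autosomes. The share averaged 4.92% ± 1.08 (SD, n = 19 autosomes), with the lowest on chromosome 19 (3.03%) and the highest on chromosome 3 (7.16%). By Fisher's exact test of each autosome against the rest, with adjustment over 19 tests, 4 were above and 4 below. The share was above the rest on chromosomes 3 (odds ratio 1.52, adjusted p = 1.25e-07), 1 (6.55%, 1.38, adjusted p = 4.971e-06), 6 (6.45%, 1.36, adjusted p = 7.073e-05) and 13 (6.08%, 1.26, adjusted p = 0.01037), all by that exact test. It was below on chromosomes 19 (0.594, adjusted p = 7.073e-05), 11 (3.52%, 0.687, adjusted p = 3.687e-06), 4 (4.05%, 0.802, adjusted p = 0.01037) and 5 (4.23%, 0.843, adjusted p = 0.04976), by the same exact test. With 1 region kept per 50 kb, chromosomes 1, 3, 6 and 19 still passed. Chromosomes 4, 5, 11 and 13 did not, with odds ratios of 0.870, 0.934, 0.758 and 1.19 in the same directions. Per Mb, measured up to the last region of each chromosome, cluster 5 had 1.34 ± 0.202 regions (1.03 to 1.67) and other regions 26.7 ± 5.33 (19.6 to 41.1), so the density of other regions varied more. The share was lower on gene-dense autosomes (Pearson coefficient -0.62, Spearman coefficient -0.63 with protein-coding genes per Mb, n = 19 autosomes). Without chromosomes 7 and 11, the most extreme in gene density, the Pearson coefficient was -0.61 and the Spearman coefficient -0.56 (n = 17). Both quantities depend on the same region and gene tables, and the relation is given as a description.

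**Figure D4:**
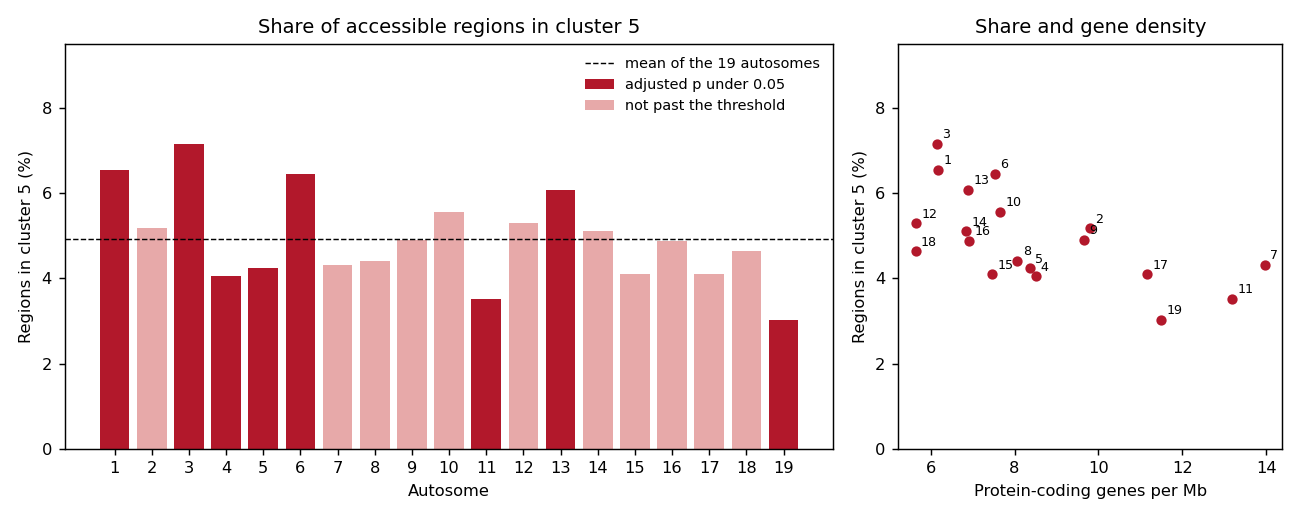
Left, percent of accessible regions in cluster 5 on each autosome, dark where the adjusted p of Fisher's exact test was under 0.05; the dashed line is the mean of 4.92%. Right, the same percent against protein-coding genes per Mb; each point is 1 autosome, with chromosome 3 highest (7.16%) and chromosome 19 lowest (3.03%).

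Cluster 5 regions had a cluster 5 neighbour more often than other regions did, although most of their neighbours were of other clusters. Of adjacent autosomal regions with a gap of at most 10 kb, the right-hand one was in cluster 5 in 123 of 1564 pairs (7.86%) that began with a cluster 5 region, against 1450 of 30864 pairs (4.70%) that began with another region. The odds ratio was 1.73 (1.43 to 2.10, p = 1.269e-07, Fisher's exact test, two-sided), and the share was higher on 14 of 19 autosomes. Counting both sides, cluster 6 made up 19.1% of the neighbours of cluster 5 regions, against 12.9% of the neighbours of other regions. Cluster 7 made up 20.2% against 17.7%, cluster 9 16.8% against 24.1%, cluster 1 16.7% against 20.9%, and cluster 8 7.84% against 9.75%. Cluster 4 made up 4.8% against 3.8%, while clusters 2 (2.6% against 2.4%) and 3 (4.0% against 3.9%) differed less. The neighbours of cluster 5 were thus more often of clusters 4, 5, 6 and 7 and less often of clusters 1, 8 and 9, as a description. The median gap to the nearest region of any cluster was 5.62 kb for cluster 5 and 5.56 kb for other regions, while 298 members (8.85%) had no region within 50 kb, against 5.80% of other regions.

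**Figure D5:**
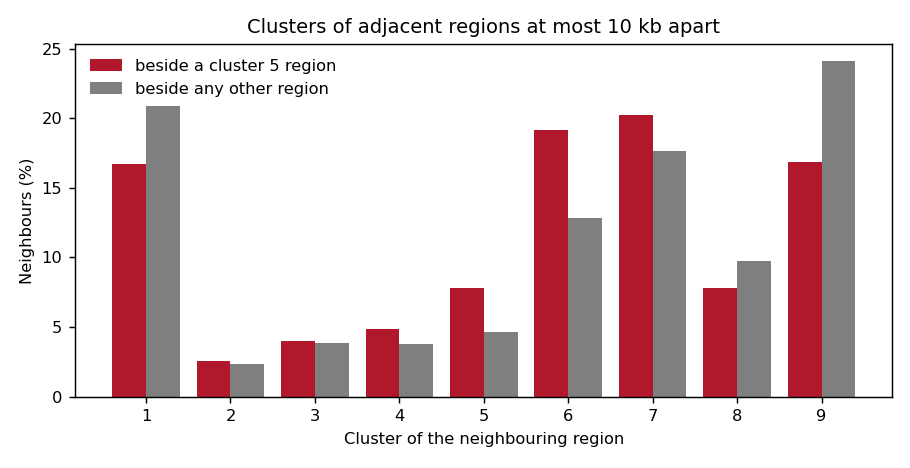
Percent of neighbouring regions (gap of at most 10 kb) by their cluster, beside cluster 5 regions (red) and beside other autosomal regions (grey). Cluster 5 had more neighbours of clusters 5 (7.84%) and 6 (19.1%) and fewer of cluster 9 (16.8%).

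Most members had no other member next to them within 10 kb. A region of any cluster lay within 10 kb of 2208 members (65.6%), against 67.4% of other autosomal regions. A run was taken as members with gaps of at most 10 kb and no region of another cluster between them. By this rule 3132 members were in no run, 105 runs held 2, 6 runs held 3 and 2 runs held 4. Cluster 5 held 4.93% of autosomal regions, and runs were not counted for other clusters. The first run of 4 spanned 15390 bp at chr9:119991218-120006607, between genes, with Csrnp1 14.2 kb from its midpoint, and its regions were 609, 636, 555 and 896 bp wide. The second spanned 16373 bp at chr12:76214616-76230988 inside Tex21, with widths of 881, 558, 420 and 1510 bp. All 4 regions inside Tex21 were in cluster 5. Runs of 3 lay inside Arhgap21, 19.1 kb from Gtf2i and 45.3 kb from Elf5 by their midpoints and at Rabggtb, and others reached from inside Tmem39a and from inside Pnpla6 to beyond the limits of those genes. At Rabggtb, which encodes the beta subunit of an enzyme that attaches lipid to Rab GTPases, the run covered both gene ends, with regions of 3807, 1305 and 691 bp.

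At genes, a cluster 5 region lay at an end of 574 of the 12914 autosomal protein-coding genes that had any region at an end (4.44%). For 457 of the 574, cluster 5 was the only cluster at the gene's ends. Rabggtb and Ubap2l, a gene of stress granule assembly, were the genes with 2 cluster 5 end regions. A cluster 5 region lay inside the gene or within 50 kb of it for 4866 of 20665 autosomal protein-coding genes (23.5%), and 205 genes had 3 or more. Long genes come first in such a ranking. Pde4d, a cAMP phosphodiesterase gene of 1302 kb, had 7 of its 34 regions in cluster 5, all inside the gene and between 116 and 603 kb from its nearer limit. Lamc1, the laminin gamma 1 chain gene of 114 kb, had 6 of 27, with 2 inside. Gpc6, a glypican gene, had 5 of 14, Dock1, an activator of Rac, 5 of 17, Utrn, the utrophin gene, 5 of 29, and Pakap 5 of 36, in each case inside the gene.

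Shorter genes with as many members were Elovl6, Rps23rg1, Pnpla6 and Slc38a7. Elovl6, a fatty acid elongase gene of 106 kb, had 5 of 21, which lay inside the gene at 3.93, 9.13, 12.5, 17.3 and 41.9 kb from its start, with widths of 1176, 1491, 2926, 574 and 2655 bp. The first 4 thus had midpoints within 17.3 kb of the start, but they were not a run, since regions of other clusters stood among them. The only region at an end of Elovl6, counted over both limits of the gene, was in cluster 6. Rps23rg1 and Pnpla6, neighbours on chromosome 8, had 5 of 14 and 5 of 16, and share members with Mcoln1, a lysosomal channel gene (4 of 13). Slc38a7, an amino acid transporter gene, had 5 of 18, and its neighbour Got2, a mitochondrial aminotransferase gene, 4 of 12. Ppp1r9a (5 of 17) and Zfp704 (5 of 31) completed the genes with 5. Rab39 and Cul5, neighbours on chromosome 9, had 4 of 9 and 4 of 11. Mthfd1, an enzyme gene of folate metabolism next to Tex21, had 4 of 11, Adamtsl1 4 of 13 and Slc28a1, a nucleoside transporter gene, 4 of 13. Tfcp2l1 is described with the pluripotency genes.

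Genes of the naive pluripotency network carried cluster 5 regions around them, and 1 of them, Zfp42, at an end. Of 29 autosomal genes in the list, 16 (55.2%) had a member within 50 kb, against 23.5% of all genes, and 1 of the 21 with an end region had one there, against 4.44% of all such genes. These genes also had more regions of any cluster nearby, 384 for 29 genes against 156948 for all 20665, which bears on the first share. Of the 384, counted once for each gene so that neighbours share regions, 24 were in cluster 5 (6.25%), against 3.98% around all genes. Most other lists had lower shares, but those of imprinted (7.14%), primitive endoderm (7.74%) and 2-cell-like state genes (10%, 2 of 20 regions) were higher. Tfcp2l1, a transcription factor gene of self-renewal, had 4 of 19, all inside the gene, with widths of 417, 425, 5931 and 509 bp at 2.46, 5.93, 20.1 and 35.3 kb from its start. Esrrb had 3 of 23, all inside the gene, with widths of 578, 1090 and 12608 bp. Its end regions were in clusters 7 and 9, and that of Tfcp2l1 in cluster 4. Dppa5a had 2 of 10, at 1.59 and 3.80 kb from the gene by midpoint and 2451 and 8114 bp wide. Dppa3, which encodes a protein that protects DNA methylation in the early embryo, had 2 of 13, with midpoints at 1.72 and 35.2 kb, and the same regions were counted for its neighbour Gdf3 (2 of 10).

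Zfp42 was the member of that list with cluster 5 at an end, a region of 2964 bp at chr8:43305635-43308598 whose midpoint lay 0.107 kb from the start site shown above. Nanog had 1 of 20 nearby regions in cluster 5, Pou5f1 1 of 16, Klf5 1 of 19, Tbx3 1 of 16 and Prdm14 1 of 14. Sox2 had 0 of 10, Klf2 0 of 14, Klf4 0 of 5, Nr5a2 0 of 12 and Lefty1 0 of 16. The end regions of Nanog, Klf4 and Klf5 were in cluster 6, that of Sox2 in cluster 8 and that of Pou5f1 in cluster 4. In the list of signalling targets, 10 of 21 genes (47.6%) had a member within 50 kb, against 23.5% of all genes. Of 246 regions near these 21 genes, 15 were in cluster 5 (6.10%), against 3.98% around all genes. At an end, 2 of 16 had one (12.5%, exact 95% interval 1.55% to 38.4%, which includes the 4.44% of all genes): Sp5, a target of Wnt signalling (3262 bp), and Spry2. Socs3 and Il6st, the feedback inhibitor and the shared receptor subunit of LIF signalling, had 2 each. The nearer one at Socs3 had its midpoint 5.47 kb from the gene, and the nearer one at Il6st, 3543 bp wide, covered that gene's start site, with its midpoint 1.21 kb outside the gene. Lef1, a transcription factor of Wnt signalling, had 3, with midpoints 7.91, 25.7 and 47.4 kb from the gene.

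Developmental regulators held by Polycomb, a repressive complex, had few members. Of 69 such genes, 8 (11.6%) had a cluster 5 region within 50 kb, against 23.5% of all genes, and 0 of 54 had one at an end (exact binomial 95% interval 0% to 6.60%), an interval that includes the 4.44% of all genes. Of 567 nearby regions, 10 were in cluster 5 (1.76%), against 3.98% around all genes. Genes of the Polycomb complexes themselves had members within 50 kb in 13 of 30 cases (43.3%). They also had more regions of any cluster nearby, 409 for 30 genes against 156948 for all 20665. Of the 409, 20 were in cluster 5 (4.89%), against 3.98% around all genes. At an end, 2 of 30 had one, Rbbp4 and Aebp2 (exact 95% interval 0.818% to 22.1%, which includes 4.44%). Aebp2, an accessory subunit of PRC2, had a region of 5394 bp over its start and others 4.65 and 2.57 kb from its limits. The lists of formative and primed pluripotency (0 of 12), condensate and transcription machinery (0 of 22), DNA methylation and chromatin silencing (0 of 18), CTCF and cohesin (0 of 10), trophoblast (0 of 10) and the 2-cell-like state (0 of 2) had no member at an end, with upper 95% limits of 15.4% to 84.2% that also lie above 4.44%.

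Genes of basic cell functions held members at their ends in small numbers. Ribosomal protein genes did so in 6 of 69 cases (8.70%, exact 95% interval 3.26% to 17.97%): Rpl37a, Rpl38, Rpl41, Rps6, Rps15a and Rps27. Genes of vesicle coats and secretory traffic did so in 4 of 27 (14.8%, 4.19% to 33.7%): Copa and Copb1, subunits of the COPI coat, Bet1, a SNARE, and Rab1a, a small GTPase of transport from the endoplasmic reticulum. Both intervals include the 4.44% of all genes. Oxidative phosphorylation genes had 2 of 36 (Ndufs1 and Ndufs3, subunits of complex I), proteasome genes 1 of 31 (Psmd4) and immediate early and heat shock genes 1 of 25 (Ier2). Imprinted genes had 2 of 13, from a single region of 2968 bp between Peg10 and Sgce, which are transcribed apart from a shared promoter. Among genes named after their values were seen, single end regions covered the starts of Gapdh (3900 bp), Cxcr4 (2622 bp), Hadha and Hadhb (1209 bp), Tert (1123 bp) and B2m (645 bp).

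The lists of genes of other cell types had no member at a gene end, but are too short to tell this from the 4.44% of all genes. The counts were 0 of 18 for fibroblast genes of the feeder cells, 0 of 13 for neuronal, 0 of 7 for liver, 0 of 7 for haematopoietic, 0 of 8 for muscle and 0 of 10 for primitive endoderm genes, and the exact binomial 95% upper limits, 18.5% for fibroblast to 41.0% for liver and haematopoietic genes, all lie above 4.44%. Within 50 kb, where 23.5% of all genes had a member, members were found at 4 of 29 fibroblast genes (13.8%), among them Fn1, the fibronectin gene (2 of 16). They were found at 4 of 18 neuronal genes (22.2%), among them Grin2b, a glutamate receptor subunit gene (3 of 16). The counts were 5 of 14 for trophoblast (35.7%), 6 of 19 for haematopoietic (31.6%), 3 of 18 for liver (16.7%) and 2 of 20 for muscle genes (10%). In the same order, 5.19%, 5.52%, 2.97% and 1.05% of their nearby regions were in cluster 5. For primitive endoderm, the extraembryonic lineage of the yolk sac, 6 of 18 genes (33.3%) had a member within 50 kb, and 13 of 168 nearby regions were in cluster 5 (7.74%, against 3.98% around all genes). Lamc1 and Lamb1, laminin chain genes, gave 6 and 2 of these 13. Germline genes had 1 of 16, Rpl10l.

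Among gene families, those named Zfp, zinc finger proteins of which many carry a repressive KRAB domain, had a cluster 5 region at an end in 25 of 304 cases (8.22%, exact 95% interval 5.39% to 11.9%), against 4.44% of all genes. The 25 lay on 9 autosomes, with 6 on chromosome 7 and 5 on chromosome 17, and cluster 5 was the sole end cluster in 21 of them. Within 50 kb, 144 of 388 Zfp genes (37.1%) had a member, against 23.5% of all genes. Zfp951, whose promoter is shown above, had 2, and Zfp229 had 3 of its 5 nearby regions in cluster 5. Histone genes had 5 of 53 at an end (9.43%, 3.14% to 20.7%), all on chromosome 13: H2bc14, H2ac10, H3c8, H2ac4 and H3c2. The interval includes 4.44%, and the 5 genes rest on 3 regions, since H2ac10 and H3c8 share 1 region and H2ac4 and H3c2 another. Near-identical histone copies make reads there uncertain. Solute carrier genes had 12 of 251 (4.78%), olfactory receptor genes 1 of 16, and collagen, protocadherin, keratin and cytochrome P450 genes 0 of 21, 0 of 30, 0 of 12 and 0 of 24.

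Transfer RNA genes were held by 16 members, out of 167 autosomal regions that held any (9.58%, against 4.93% of all autosomal regions in cluster 5). The share in cluster 5 varied with width. It was 2.84% of regions of 271 to 635 bp, 14.9% up to 813.5 bp, 13.3% up to 1091 bp and 6.02% above that. The tRNA share was not compared within width classes, so it cannot be set apart from width. The 16 contained 32 of the 263 tRNA genes in regions. A member of 6256 bp at chr13:21167274-21173529 held 7 tRNA genes, 1 of 4545 bp at chr13:23515412-23519956 held 5, and 1 of 6491 bp at chr11:48852832-48859322 held 4. These wide members lay in the tRNA and histone gene clusters of chromosome 13 and in a tRNA cluster of chromosome 11, where copies are alike in sequence and reads may be split among them. Long non-coding RNA genes overlapped 439 members (13.0%) and 12.6% of other regions. Small nuclear RNA genes overlapped 1 member of 46 regions, small nucleolar RNA genes 1 of 79 (Snord49a, Snord49b and Snord65, in a region of 5908 bp), and microRNA genes 2 of 141, Mir6347 and Mir3063.

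Start sites were counted in addition to gene limits, which do not tell starts from ends. Outside chromosome 18, 426 of 3263 members (13.1%) held a protein-coding start site, against 15.1% of other regions. Among members at gene ends, 356 of 505 (70.5%) held a start, against 65.4% of other gene-end regions, 56.2% in cluster 1, 54.1% in cluster 6 and 73.1% in cluster 8. Members with starts on both strands numbered 31 (7.28% of those with a start), against 8.29% among other regions. The start sites lay near the middle of the member, at a median of 0.511 of its width from the upstream edge (quartiles 0.391 and 0.625, n = 520 start sites).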

How the data were processed

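The deposited table, a file of positions and cluster names rather than counts or signal, lists regions from 0, shifted here to 1. Per the submitters' processing notes, SAMtools 1.6, Picard, Bowtie2 2.3.3.1 and cutadapt 1.18 were used, with mm10 as the build. Region calling, cluster assignment and depth are not given in the sources used here. Genes and promoter sequences came from RefSeq tables of GRCm38.p6. Shares were compared by two-sided Fisher's exact tests, and p-values were adjusted by the Benjamini-Hochberg method over 12 tests of position, 6 of distance and 19 of autosomes. Odds ratios carry Woolf 95% intervals. Fits between libraries were planned and could not be run without library values. The position tests against all other autosomal regions were tried on the real regions with cluster names shuffled within chromosomes. In a further version, some names were moved to gene ends. The outcomes are not given here. Shuffling single names also removes the likeness of neighbouring regions, so it cannot show how far that likeness makes the p-values too small. Other methods were not tried on shuffled names. Members, the 24 gene lists and the tests were chosen with earlier results of these data known. Of 666 list entries, 639 matched an autosomal gene. The text names the 20 genes with most members within 50 kb, the 10 widest members, the 10 genes with most members inside, the longest runs, genes with members at 2 ends and leading members of each list. Others were named after their values were seen, and a few named genes are left out here. Python 3.11.15, pandas 2.3.3, SciPy 1.17.1, statsmodels 0.14.6 and matplotlib 3.10.9 were used.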

Additional observations from a re-analysis of the deposited data

Results flagged for a closer look

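Cluster 5 took 11.6% of the accessible regions on chromosome X (159 of 1371), which lies outside the autosomal comparisons, against 4.93% on the autosomes (odds ratio 2.53, 95% interval 2.14 to 2.99, p = 4.872e-22, Fisher's exact test, two-sided). The highest autosomal share was 7.16%, on chromosome 3. The median width of these X regions was 874 bp, and 42.1% of them lay at gene ends, against 813.5 bp and 15.5% in autosomal cluster 5. Chromosome Y had 1 cluster 5 region among 11. Adjacent X regions are not independent, so this p-value is too small.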

How the results depend on the processing

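Regions stand in for independent observations, and no value per library limits what can be tested: depth, replicate error and treatment could not be compared. No paired analysis was possible because the table holds no value per library, and leaving out replicates could not be done for the same reason. Of 40 recomputed main values, 36 were counted as unchanged. For odds ratios this meant the same direction and side of the threshold. For counts it meant only a value of similar size. The 4 distance classes past the threshold became 5 with all annotated genes and 3 with 1 region per 50 kb. Genes with a member nearby numbered 7266 with a window of 100 kb. Those with a member at an end numbered 574, and 482 to 756 under the alternatives. The gene-body odds ratio reversed to 1.04 among regions of 500 to 1500 bp and to 1.04 within strata of width decile, passing the test in neither. The number of autosomes past the threshold was 4 instead of 8 with 1 region per 50 kb, and 3074 instead of 4866 genes had a member within a window of 20 kb. The gene-end and intergenic differences kept their direction and call under all alternatives run, with odds ratios of 0.388 to 0.89 and 1.36 to 1.93. Among 113 secondary values, 97 were unchanged in call and direction, 11 no longer passed and 1 newly passed. Odds ratios that reversed, none of them past the threshold, were 1.02 for over 5 to 20 kb with all annotated genes, 0.921 for over 20 to 50 kb with 1 region per 50 kb, 1.08 for chromosome 9 away from gene ends and 0.903 for chromosome 12 with 1 region per 50 kb. The cause of these shifts was not tested.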

Other observations

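Long non-coding RNA genes started in cluster 5 regions in 118 promoter windows of 107 genes. Their median GC content was 55.8% and their median CpG count 12, with quartiles of 5 and 23. Over all 11311 lncRNA promoter windows the medians were 48.3% and 4 CpG. Windows with under 8 CpG made up 36.4% of the cluster 5 lncRNA promoters and 74.9% of all lncRNA promoters. These are descriptions of the windows, without a test.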
